A study of Mus musculus with 2 samples.

Results

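Meningeal fibroblasts are the matrix-producing cells of the membranes around the brain, and the genes described here are 43 genes of these cells and of the non-collagen matrix that they and vessel-associated cells lay down. They were chosen by name as array entries that are not controls and carry the gene's symbol, and 42 of them had a probe, out of 37073 gene entries on the array. Crabp2 had no entry. The genes fall into 5 classes: 12 leptomeningeal transporters and factors, 7 small leucine-rich proteoglycans and their relative Islr, 8 components of elastic fibres with the fibulins, 7 adhesive and matricellular proteins, and 9 laminin and nidogen genes of the basement membrane. The study compared total RNA of brain from mice of the C57BL/6J strain at postnatal day 10. One brain RNA had the genotype GPHR F/F;Nes and the other was from a GPHR F/F littermate, so both carried GPHR F/F. GPHR is the Golgi pH regulator, an anion channel of the Golgi membrane. The labels do not spell out what Nes stands for or in which cells it acts, and they do not say whether animals were pooled. There was 1 array for each genotype (n = 1), and below the GPHR F/F;Nes sample is called the Nes array and the GPHR F/F sample the control array.

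As background, the leptomeninges (arachnoid and pia) are made by fibroblasts that express solute carriers for small neurotransmitters and organic anions, the retinoic acid-producing enzyme Aldh1a2 and forkhead transcription factors. These cells secrete collagens and small proteoglycans, and with vessels and astrocyte endfeet they border the basement membrane that covers the brain surface. Basement membranes are sheets of laminin trimers, each of an alpha, a beta and a gamma chain, tied to a collagen network by nidogens. Elastic fibres consist of elastin on a scaffold of fibrillin microfibrils, and fibulins link the parts.

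The probes of the genes with large differences are given first, since these values rest on short stretches of sequence. Postn was read by 3 measured probes, of which the brightest is shown, and the value of each other gene listed rests on 1 probe. Each line gives the first 30 of the probe's 60 bases, 5′ to 3′, with the place of the whole probe on the mm9 build. The gene parts that the probes lie in, such as exons, were not analysed here.
Slc6a13 probe, chr6:121287597-121287656, plus strand: ggtccacacattgtgacgtgcccgaatcaa
Aldh1a2 probe, chr9:71143931-71143990, plus strand: aaccagctagctcccttcaacccacagtat
Gjb2 probe, chr14:57717629-57717688, minus strand: caagttgaaccattaccactatgccttatg
Foxc1 probe, chr13:31902423-31902482, plus strand: cttaagcagtaattgctgttgcttgttgtc
Ogn probe, chr13:49719549-49719608, plus strand: cattaaagcatctgtgaactgtaaggccac
Postn probe, chr3:54194483-54194542, plus strand: gattaaagtagaatccaccaaagaacatca
Lama4 probe, chr10:38825794-38825853, plus strand: ttggatgtagactcagaagtgaaccatgta
Nov probe, chr15:54585236-54585295, plus strand: tgttatcagtgagtgactctggtattagtt

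Levels are given as the relative signal, the scanner software's processed probe signal in percent of the 75th percentile of all probes on the same array. Differences are log2 values of the Nes array minus the control array, and a log2 difference of 1 is 2-fold. The ± values are the scanner software's technical error, which leaves out differences between animals. Since each genotype has 1 array, nothing was tested and no value has a check by replicates. The 75th percentile was 259.5 units on the control array and 173.4 units on the Nes array, 67.0% and 69.2% of probes were well above background, and 0 spots were saturated. Over 23948 genes well above background on both arrays the median difference was 0.07. The difference depended on the level, with medians of 0.45 in the second dimmest of 20 bins and -0.12 in bin 18. Scaled to the 8 spike-in probes in place of the 75th percentile, the median of all genes was -0.96, so "higher" below always means relative to the other genes of the array. Gpr89, the gene of GPHR, differed by -0.53 ± 0.22, and the labels do not say whether its probe lies in the deleted part. Xist was well above background on the Nes array alone and the Y-linked Eif2s3y, Ddx3y and Uty on the control array alone, so sex and genotype cannot be told apart.

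As a set, the meningeal and matrix genes were higher on the Nes array. Of the 42 genes with a probe, 35 were well above background on both arrays, 5 on the Nes array alone, 0 on the control array alone and 2 on neither. Of the 35, 17 were at least 2-fold higher, against 7.93% of all genes measured on both arrays, and 1 was at least 2-fold lower, against 1.37%. The difference was above 0 for 30 of the 35, against 57.0% of all genes. The 5 genes with signal on the Nes array alone compare with 4.57% of all gene entries, and 1.87% of entries had signal on the control array alone. The median over the 35 was 0.94. Of these genes, 18 were dimmer than the median gene, and 10 of them were 2-fold higher, against 12.4% of all genes that dim. Among those brighter than the median gene 7 of 17 were 2-fold higher, against 3.52%. Scaled to spike-in RNAs the median of the 35 was -0.09. In that setting 5 genes, Slc6a13, Gjb2, Foxc1, Postn and Lama4, were 2-fold higher, against 0.58% of all genes. With normexp background correction followed by quantile normalization 6 were, against 1.37% of all genes. They were Gjb2, Ptgds, Ogn, Fbln5, Thbs1 and Nid2, so Gjb2 alone reached 2-fold in both of these settings. In bulk tissue, more cells of a type and more RNA per cell cannot be told apart.

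**Figure D1:**
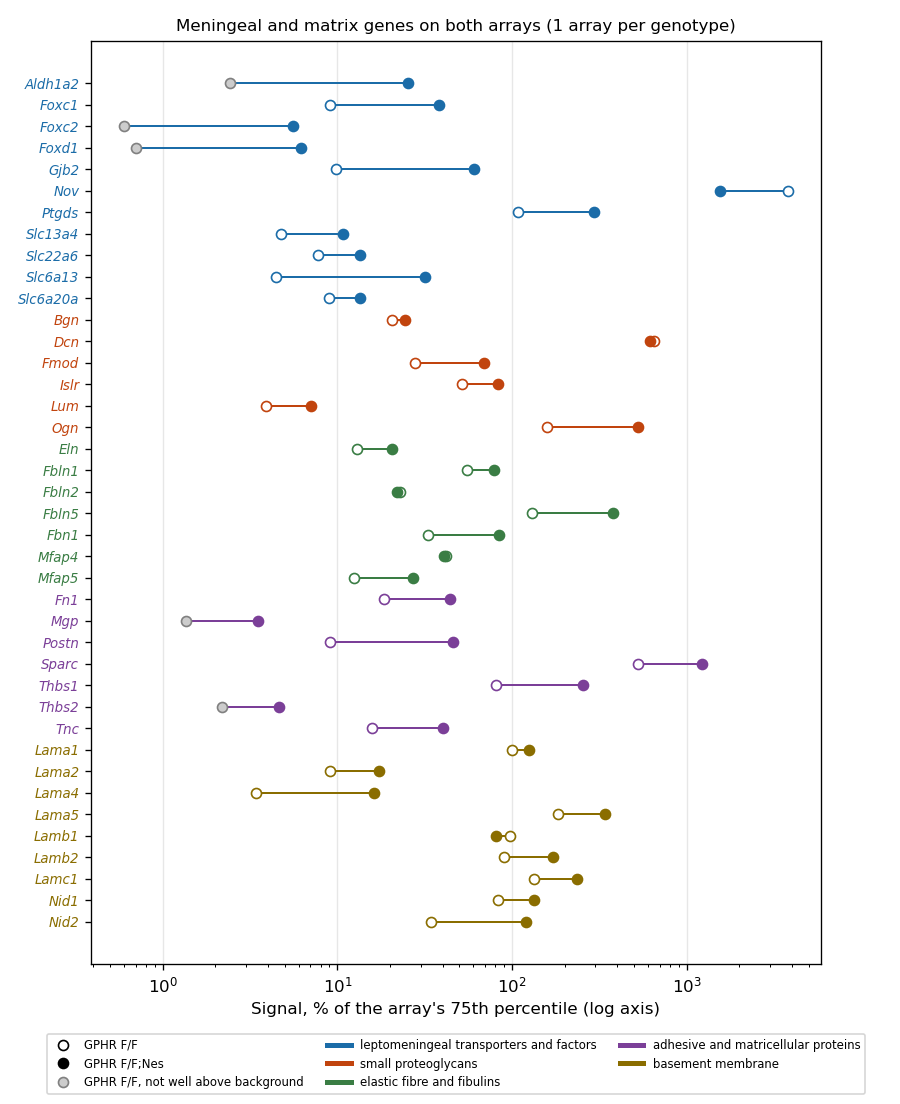
Relative signal of each gene (percent of the array's 75th percentile, log axis) on the control array (open circles) and the Nes array (filled circles), 1 array each, coloured by class. Nov, Dcn, Fbln2, Mfap4 and Lamb1 have the filled circle to the left or at the same place, and grey circles mark the 5 genes that were not well above background in the control. Genes are measured by different probes, so positions compare arrays and not genes.

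The leptomeningeal transporters and factors held the largest and the only 2-fold lower value of the 35 genes. Slc6a13, the GABA and taurine transporter GAT2 of the leptomeninges, had a relative signal of 4.47% on the control array and 31.9% on the Nes array, a difference of 2.84 ± 0.28 or 7.14-fold. Gjb2, the gap junction protein connexin 26 that joins meningeal cells, stood at 9.8% and 60.3%, a difference of 2.62 ± 0.22. Both genes were dim on the control array and rested on 1 probe each. Ptgds, the prostaglandin D synthase secreted by leptomeninges and choroid plexus, stood at 108% and 294% (1.44 ± 0.06). Its probe was printed 10 times on the array, and the 10 spots gave differences of 1.28 to 1.55 (SD 0.084). All 10 spots were brighter on the Nes array, at 268% to 312% against 104% to 118%, but these are repeats within 1 array.

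The other transporters differed less. Slc13a4, a sulfate transporter, stood at 4.74% and 10.8% (1.18 ± 0.27). Slc22a6, the organic anion transporter OAT1, stood at 7.71% and 13.5% (0.81 ± 0.24), and Slc6a20a, a proline transporter, at 8.98% and 13.5% (0.59 ± 0.23). All 3 lie in the dimmest 4 of 20 bins of level, and the medians of their bins were 0.35 and 0.41. After a loess correction for level their differences were 0.87, 0.55 and 0.35, so Slc13a4 no longer reached 2-fold. Slc6a13 remained at 2.61 and Foxc1 at 1.91 after the same correction. With normexp and quantile normalization Slc6a13 was at 0.79, Foxc1 at 0.87 and Slc13a4 at 0.22, all under 2-fold, and Gjb2 was at 1.25.

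The 3 forkhead genes of the class were brighter on the Nes array. Foxc1, which is required in meningeal precursors, stood at 9.11% and 38.2% (2.07 ± 0.22, 4.19-fold). Foxc2 and Foxd1 were well above background on the Nes array alone, with relative signals of 5.6% and 6.19%. Set against 2.42%, the dimmest control signal that counted as well above background, they were at least 2.31-fold and at least 2.56-fold higher. Aldh1a2, which makes retinoic acid, was also above background on the Nes array alone, at 25.2%, and was at least 10.4-fold higher. Aldh1a2 thus had the highest bound of the 5 genes measured on 1 array.

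Nov (Ccn3), a secreted matricellular protein of the CCN family, went the other way. It stood at 3790% on the control array and 1550% on the Nes array (-1.29 ± 0.20, 2.44-fold lower). It was the only one of the 35 genes that was 2-fold lower, and it was 2-fold lower in each scaling and background setting tried. The class median over 8 measured genes was 1.31, with Nov included. Because Nov is bright, the summed signal of the 8 genes was 39.4 times the 75th percentile on the control array and 20.2 times on the Nes array, opposite to the median.

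The small leucine-rich proteoglycans, which bind and space collagen fibrils, were divided. Ogn (osteoglycin) stood at 159% and 523% (1.72 ± 0.20) and Fmod (fibromodulin) at 27.8% and 68.7% (1.31 ± 0.21). Dcn (decorin) stood at 648% on the control array and 618% on the Nes array, a difference of -0.07 ± 0.20, smaller than its technical error. Bgn (biglycan) differed by 0.26 ± 0.21 on its only probe measured on both arrays. A second Bgn probe was well above background on the Nes array alone, at 5.69% against 0.558% (3.35 ± 1.47). Its control value lay under 2.42%, the dimmest control signal that counted, so the size of this contrast was not measured. The other Bgn probe was well above background on neither array. The Bgn probes thus did not all give the same reading. Lum (lumican) stood at 3.89% and 7.02% (0.85 ± 0.34, and 0.50 after the loess correction). Islr, a related protein with leucine-rich repeats and an immunoglobulin domain, stood at 51.7% and 83.2% (0.69 ± 0.20). Aspn (asporin) was not well above background on either array. The class median was 0.77 over 6 genes.

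Several of these proteoglycan genes lie next to each other on the chromosome, by the order of protein-coding genes in the RefSeq table of GRCm38.p6. On chromosome 13 the order is Ecm2, Aspn, Omd, Ogn. Beside Ogn at 1.72, Omd (osteomodulin) differed by 2.67 ± 0.32 and Ecm2 by 1.55 ± 0.22, while Aspn between them had no signal well above background. Omd rested on 1 probe, at 3.0% on the control array and 19.1% on the Nes array. That control value is close to 2.42%, the dimmest that counted as well above background. On chromosome 10, Dcn at -0.07 is followed by Lum at 0.85, Kera and Epyc, and the last pair was not well above background on either array. On chromosome 1, Prelp (1.25 ± 0.15) and Fmod (1.31) are neighbours, and Optc on the other side of Prelp stood at -0.95 ± 0.23. Neighbours in these clusters thus differed in size and, at Optc, in direction.

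Among elastic fibre genes, fibrillin-1 and fibulin-5 were higher and a further group was nearly equal on the 2 arrays. Fbln5, which guides elastin onto microfibrils, stood at 130.0% and 381% (1.55 ± 0.14), with 2 probes at 1.53 and 1.57 that overlap in sequence. Fbn1, the main microfibril protein, stood at 33.1% and 84.1% (1.34 ± 0.15), with 2 probes at 1.33 and 1.36. Mfap5, a microfibril-associated glycoprotein, stood at 12.5% and 27.2% (1.12 ± 0.22, and 0.96 after the loess correction). For Eln, the elastin gene, 2 probes gave 0.33 and 0.99 (mean 0.66 ± 0.16).

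Fbln1 differed by 0.52 ± 0.12, with 3 probes between 0.38 and 0.72. Fbln2 stood at 22.7% and 21.8% (-0.06 ± 0.21) and Mfap4 at 41.7% and 41.0% (-0.02 ± 0.21), both within their technical error of 0. Emilin1, a glycoprotein at the elastin surface, was not well above background on either array. The class median was 0.66 over 7 genes.

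**Figure D2:**
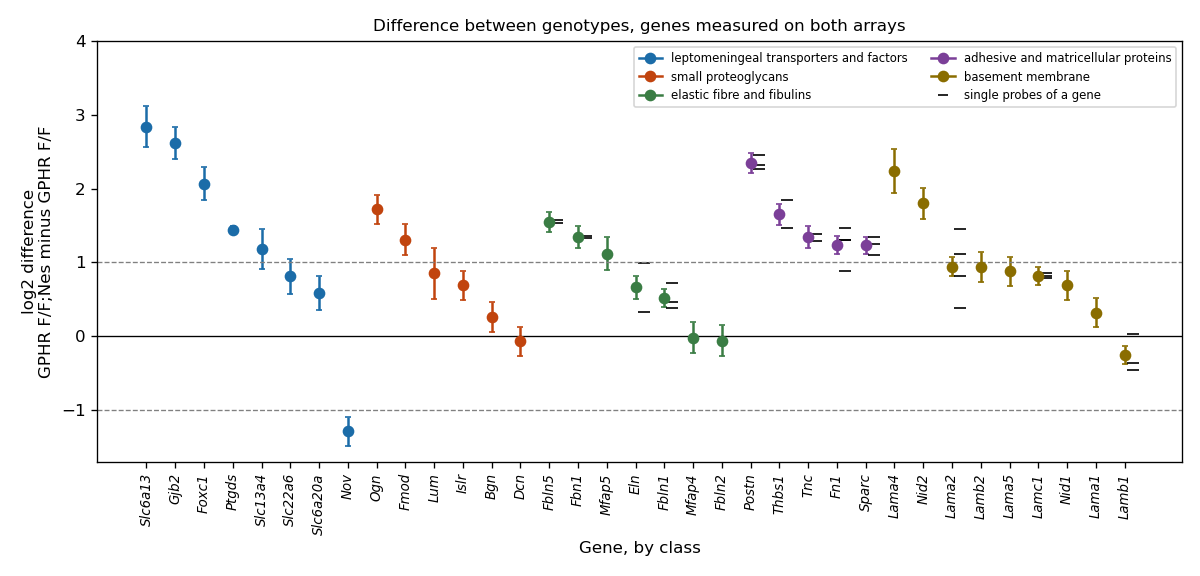
Log2 difference (Nes array minus control array) of the 35 genes measured on both arrays, ordered by size within each class; error bars are the scanner software's technical error and short black lines are the single probes of genes with several. Dashed lines mark 2-fold. All 5 adhesive and matricellular genes lie above the upper line, Nov alone lies below the lower one, and the probes of Lama2 spread from 0.38 to 1.45. Scaled to spike-in RNAs every value would be lower by the same amount, and 17 of the 35 would remain above 0.

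The adhesive and matricellular proteins, which regulate contact between cells and matrix, were higher throughout. The 5 with signal on both arrays all reached 2-fold, and each was read by 2 to 4 probes that all went in 1 direction. Postn (periostin) stood at 9.08% and 46.2% (2.35 ± 0.14, 5.08-fold), with 3 probes between 2.27 and 2.45. Thbs1 (thrombospondin-1) stood at 81.4% and 256% (1.65 ± 0.14), with probes at 1.46 and 1.84. Tnc (tenascin-C) stood at 15.8% and 40.0% (1.34 ± 0.15), with probes at 1.29 and 1.39. The fourth gene, Fn1 (fibronectin), stood at 18.6% and 43.9% (1.24 ± 0.12), and its 4 probes ranged from 0.88 to 1.47.

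Sparc (osteonectin), a collagen-binding glycoprotein, was read by 3 probes. The brightest of them stood at 13800% on the control array and 29700% on the Nes array, and the others gave differences of 1.25 and 1.35. The gene's mean difference was 1.23 ± 0.12. The mean over the 3 Sparc probes stood at 523% and 1230%, and in the bin of that mean level the median difference of all genes was -0.09. Thbs2 and Mgp (matrix Gla protein, an inhibitor of calcification) were well above background on the Nes array alone, at 4.62% and 3.51%, and were at least 1.91-fold and at least 1.45-fold higher, bounds below 2-fold. The class median was 1.34. With normexp and quantile normalization it was 0.81 and only Thbs1 (1.34) stayed 2-fold, with Postn at 0.99, Sparc at 0.81, Tnc at 0.59 and Fn1 at 0.54. Median centring placed Fn1 and Sparc at 0.96, and with spike-in scaling only Postn (1.31) stayed 2-fold.

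The basement membrane genes differed by chain. Lama4, the laminin alpha chain of vessels, stood at 3.42% and 16.1% (2.24 ± 0.30, 4.71-fold), although only 1 of its 4 probes was well above background on both arrays. The difference of Lama4 was 1.25 over all its probes without the filter on dim probes, and 0.50, under 2-fold, with normexp and quantile normalization. Lama5 stood at 184% and 339% (0.88 ± 0.20). Lama1, the alpha chain of the pial basement membrane, stood at 99.9% and 125% (0.32 ± 0.20), while a dimmer Lama1 probe was above background on the Nes array alone. Lama2 had a mean of 0.94 ± 0.13, but its brightest probe gave 0.38 and its 3 dim probes 0.82, 1.12 and 1.45. The alpha chains thus spanned a range wider than their technical error, and for Lama2 the size depended on the probe.

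The beta chains differed. Lamb2 stood at 89.5% and 172% (0.94 ± 0.20). Lamb1 stood at 97.1% and 80.9% (-0.26 ± 0.12), and its 3 probes gave -0.46, -0.36 and 0.03 from the brightest to the dimmest. Lamb1 lay above 0, at 0.22, only when dim probes were kept. That setting added Lamb1 probes well above background on neither array (1.58 ± 1.57 and 0.29 ± 2.05). With spike-in scaling both chains were below 0, Lamb2 at -0.09 and Lamb1 at -1.29. Lamc1, the gamma chain shared by most laminins, stood at 134% and 237% (0.82 ± 0.12), with 3 probes, 2 of them overlapping, between 0.79 and 0.86. Lama2 and Lamb2 at 0.94 lay just under the 2-fold line, and Mfap5 at 1.12 was the closest gene above it.

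The nidogens, which link laminin to type IV collagen, were both higher, by different amounts. Nid2 stood at 34.5% and 120% (1.80 ± 0.21, 3.48-fold) and Nid1 at 83.1% and 134% (0.69 ± 0.20). Each rested on 1 probe measured on both arrays. The class median was 0.88 over 9 genes, of which 2, Lama4 and Nid2, were 2-fold higher and 8 lay above 0. When the values were scaled to spike-in RNAs the medians of the basement membrane, elastic fibre and proteoglycan classes fell below 0, to -0.15, -0.37 and -0.26, and those of the other 2 classes stayed above it, at 0.28 and 0.31.

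**Figure D3:**
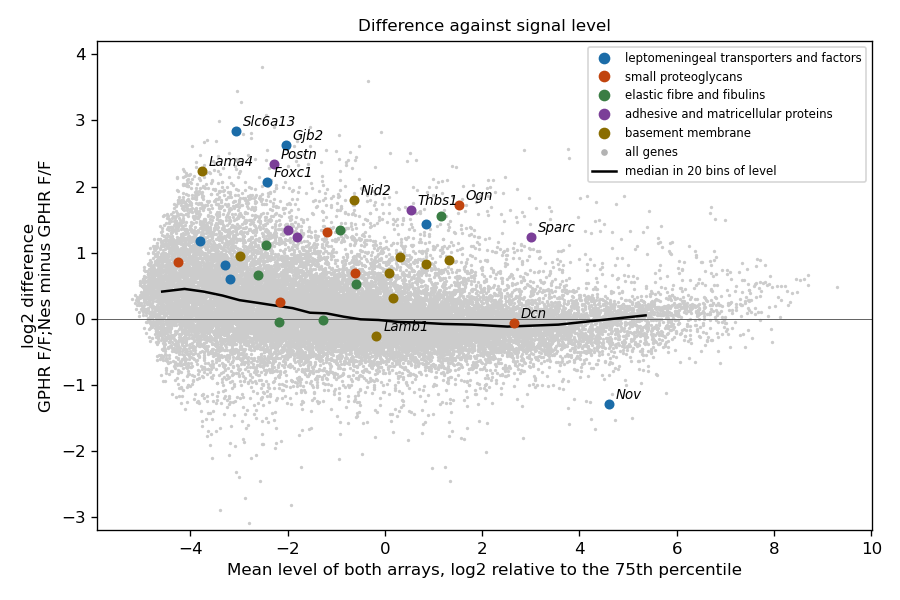
Log2 difference (Nes array minus control array) against the mean level of both arrays (log2 relative to the 75th percentile) for all 23948 genes (grey; 6 lie outside the plotted range), with the median in 20 bins of level as a black line and the genes of the 5 classes in colour. Slc6a13, Gjb2, Postn, Foxc1 and Lama4 lie in the dim part, where the black line is above 0, and Ogn, Thbs1 and Sparc lie in the bright part, where it is at or below 0.

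Related matrix genes that are not in the 5 classes were read the same way. Of 17 measured genes for elastic fibre assembly and cross-linking, 8 were at least 2-fold higher, 0 were 2-fold lower and all 17 lay above 0 (median 0.78). Lox, the lysyl oxidase that cross-links elastin and collagen, stood at 17.6% and 90.9% (2.37 ± 0.21), the transglutaminase Tgm2 at 5.85% and 27.4% (2.23 ± 0.26), and Efemp1 (fibulin-3) at 32.4% and 98.7% (1.61 ± 0.15). Of 7 other small proteoglycans, 3 were 2-fold higher (median 0.68), namely Omd, Ecm2 and Prelp. Of 22 other basement membrane components 4 were 2-fold higher (median 0.64), Papln (1.39 ± 0.15), Col4a6 (1.31 ± 0.21), Col4a5 (1.23 ± 0.15) and the proteoglycan perlecan, Hspg2 (1.09 ± 0.20). The medians of these 3 lists lay on the same side as those of the classes.

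Receptors and proteases of the matrix had smaller medians. Of 23 measured laminin and matrix receptors 2 were 2-fold higher (median 0.43), a share close to the 7.93% of all genes. They were the collagen-binding integrin chain Itga1 (1.51 ± 0.12) and the syndecan Sdc4 (1.17 ± 0.20). Of 22 matrix proteases and inhibitors 3 were 2-fold higher (median 0.42), among them the protease Mmp11 (1.25 ± 0.21) and the inhibitor Timp1 (1.13 ± 0.21). Further fibroblast genes had a median of 0.81 over 16 measured genes, 6 of them 2-fold higher, with Osr1 at 1.72 ± 0.25, Bmp6 at 1.51 ± 0.20 and Serpinf1 at 1.36 ± 0.15. In that list 5 of the 16 lay below 0, down to Pdgfra, a receptor that marks fibroblasts and also oligodendrocyte precursors, at -0.67 ± 0.16. Of that list, the transcription factor genes Twist1 and Tbx18, together with Cped1, had signal on the Nes array alone.

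The matrix of neural tissue was on the other side. All 10 measured genes of the list that holds lecticans, hyaluronan synthases and link proteins lay below 0 (median -0.34). The hyaluronan synthase Has2 stood at 11.7% and 4.44% (-1.40 ± 0.30), the link protein Hapln1 at 145% and 72.9% (-0.99 ± 0.14) and the lectican Acan at 20.4% and 11.9% (-0.78 ± 0.22). Genes of retinoic acid supply and response, apart from Aldh1a2, showed no common direction, with 7 of 12 above 0 (median 0.11). Among them Aldh1a3, another retinoic acid-producing enzyme, stood at 40.9% and 11.1% (-1.89 ± 0.20) and the retinol carrier Rbp4 at 75.5% and 39.2% (-0.95 ± 0.21), opposite in direction to Aldh1a2. The related Aldh1a1 stood at 19.8% and 30.4% (0.61 ± 0.21), the same direction as Aldh1a2, and Dhrs3 differed by 0.67 ± 0.15.

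Most measured markers of choroid plexus, of pericytes with smooth muscle and of border macrophages were also higher on the Nes array, and endothelial markers were mixed. Of 12 choroid plexus markers 9 were measured, 8 lay above 0 and 4 were 2-fold higher (median 0.93). Their summed signal was 2.4 times the 75th percentile on the control array and 7.44 times on the Nes array. Most of this rise was that of Ttr, at 10.1% and 413% (5.35 ± 0.22), while Sostdc1 was lower (-0.52 ± 0.20). Clic6 had signal on the Nes array alone, and Kl and Slc4a5 were not well above background on either array. Of 12 pericyte and smooth muscle markers 8 were measured and 6 were 2-fold higher (median 1.43, sums 16.6 and 45.3). Most of the rise in the sum was that of Tagln, at 858% and 3050%, while Notch3 differed by -0.04 ± 0.20. Abcc9 had signal on the Nes array alone, and Rgs5, Kcnj8 and Des were not above background on either array. Of 9 markers of border macrophages 5 were measured and 4 were 2-fold higher (median 1.18, sums 0.244 and 0.594). Cbr2 had signal on the control array alone, and Mrc1, Lyve1 and Cd163 were not above background on either array. The 5 measured markers were dim on the control array, at 3.21% to 7.42%, where 2.42% was the dimmest signal that counted. In the dim bins of level, up to 22.2% of all genes were 2-fold higher. Of 12 endothelial markers 7 were measured, 4 lay above 0 and 3 were 2-fold higher (median 0.16, sums 7.33 and 11.1). Esam had signal on the control array alone, and Cdh5, Tek, Tie1 and Cldn5 were not above background on either array. The part of these cell types in the values of genes they also express, such as Ptgds, Sparc, Lama4 and Nid2, was not tested.

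Markers of tissues outside the brain and its borders differed by tissue. Of 11 cartilage and bone markers with a probe 4 were measured (median -0.63, sums 1.78 and 1.36). Col2a1 was higher (0.93 ± 0.22), and Sp7 (-0.47 ± 0.20), Acan (-0.78 ± 0.22) and Runx2 (-0.85 ± 0.23) were lower. Sp7, at 127% and 91.3%, made up most of both sums. Acan is the same value as in the list of neural tissue matrix, so it does not mark tissue outside the brain here. Ibsp and Col10a1 had signal on the control array alone and Bglap on the Nes array alone. Comp, Matn1, Matn3 and Dmp1 were not above background on either array. Of 10 epidermal markers 7 were measured and 1 was 2-fold lower (median -0.26, sums 9.3 and 7.43). Of 12 skeletal muscle markers 8 were measured, 7 lay above 0 and 2 were 2-fold higher, Tnnt3 (1.15 ± 0.18) and Acta1 (1.09 ± 0.21). The median was 0.23 and the sums were 1.21 and 1.71. Tnni2 and Mb had signal on the control array alone, and Ckm and Myog were not above background on either array. Of 8 erythrocyte markers 2 were measured, Hba-a1 at -0.28 ± 0.06 and Ermap at 0.86 ± 0.20, and Slc4a1 had signal on the Nes array alone.

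**Figure D4:**
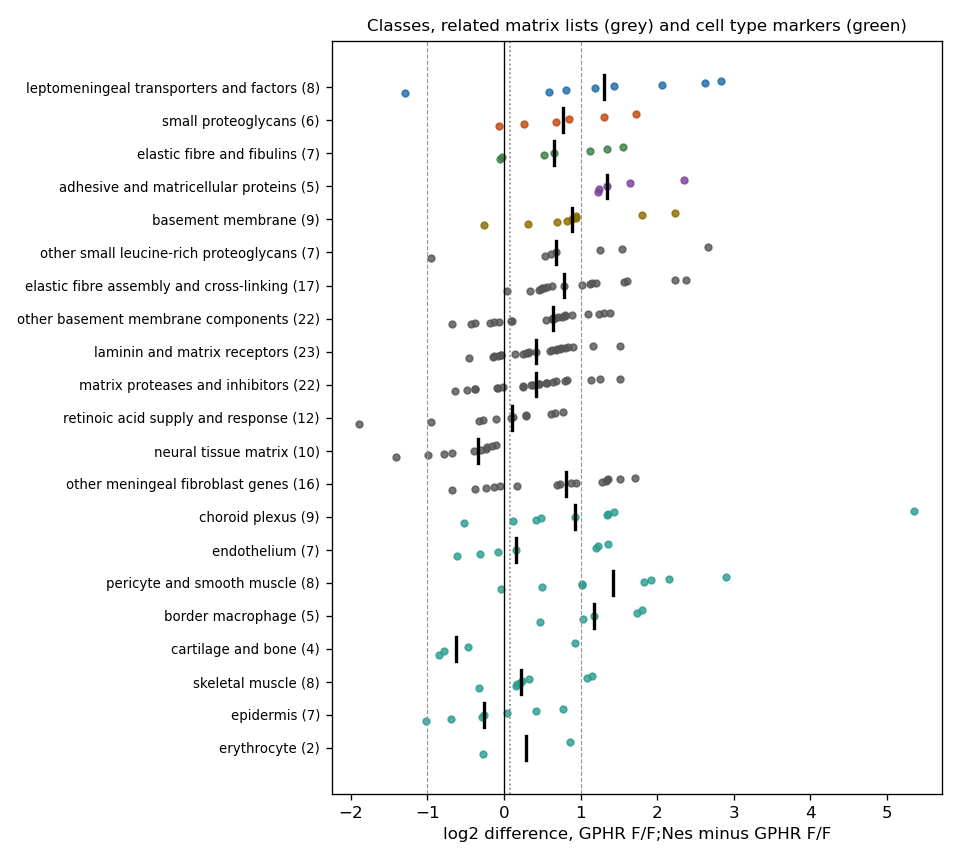
Log2 difference (Nes array minus control array) of each measured gene in the 5 classes (coloured), the related matrix lists (grey) and the marker lists of other cell types (green), with the number of measured genes in brackets. Black bars are list medians, the dotted line is the median of all genes at 0.07 and dashed lines mark 2-fold. The 5 classes have medians of 0.66 to 1.34 and neural tissue matrix one of -0.34, relative to the 75th percentile. Scaled to spike-in RNAs, 3 of the 5 class medians are below 0.

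Promoter sequence was searched for short motifs because many of these genes were higher together. RefSeq promoters of GRCm38.p6 were matched by symbol for 28 of the genes, 34 promoters in all, and the 250 bases before each start were searched on both strands. A TATA box (TATAAA) was held by 6 of the 34 (17.6%), in Aspn, Ogn, Postn, Thbs2 and Tnc, against 12.4% of all 32851 promoters. Apart from that of Postn, these matches began 126 to 229 bases before the start. A GC box (GGGCGG) was held by 16 (47.1%), against 32.7%. The Tnc promoters overlap, so the same TATA match and the same GC match of Tnc are counted in both. The forkhead core GTAAACA was held by 0 of the 34, against 3.17%, and the AP-1 motif TGANTCA by 1, that of Ptgds, against 6.75%. A match is a description of the letters and no evidence of binding. For 3 genes with large differences 1 promoter each is shown, with TATA and GC boxes in capitals. In the Postn promoter shown the TATA box begins 26 bases before the start, and those of Slc6a13 and Gjb2 hold 2 GC boxes each. The further promoters of Slc6a13 held no GC box, and the other promoter of Postn held no TATA box.
Slc6a13 promoter, chr6:121300038-121300287, plus strand: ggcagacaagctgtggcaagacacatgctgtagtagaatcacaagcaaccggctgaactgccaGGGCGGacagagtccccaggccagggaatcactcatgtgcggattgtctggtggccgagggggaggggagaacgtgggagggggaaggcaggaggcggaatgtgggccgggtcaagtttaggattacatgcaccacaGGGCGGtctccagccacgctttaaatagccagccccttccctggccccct
Gjb2 promoter, chr14:57104703-57104952, minus strand: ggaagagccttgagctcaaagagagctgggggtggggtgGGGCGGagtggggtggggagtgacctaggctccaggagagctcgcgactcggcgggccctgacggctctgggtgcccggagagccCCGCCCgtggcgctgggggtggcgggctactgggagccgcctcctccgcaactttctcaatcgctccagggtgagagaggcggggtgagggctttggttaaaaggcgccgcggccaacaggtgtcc
Postn promoter, chr3:54360857-54361106, plus strand: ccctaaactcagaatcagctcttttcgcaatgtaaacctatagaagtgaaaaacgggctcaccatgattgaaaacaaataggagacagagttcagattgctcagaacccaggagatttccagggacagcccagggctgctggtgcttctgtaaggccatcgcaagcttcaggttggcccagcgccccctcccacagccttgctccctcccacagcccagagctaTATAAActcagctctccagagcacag

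**Figure D5:**
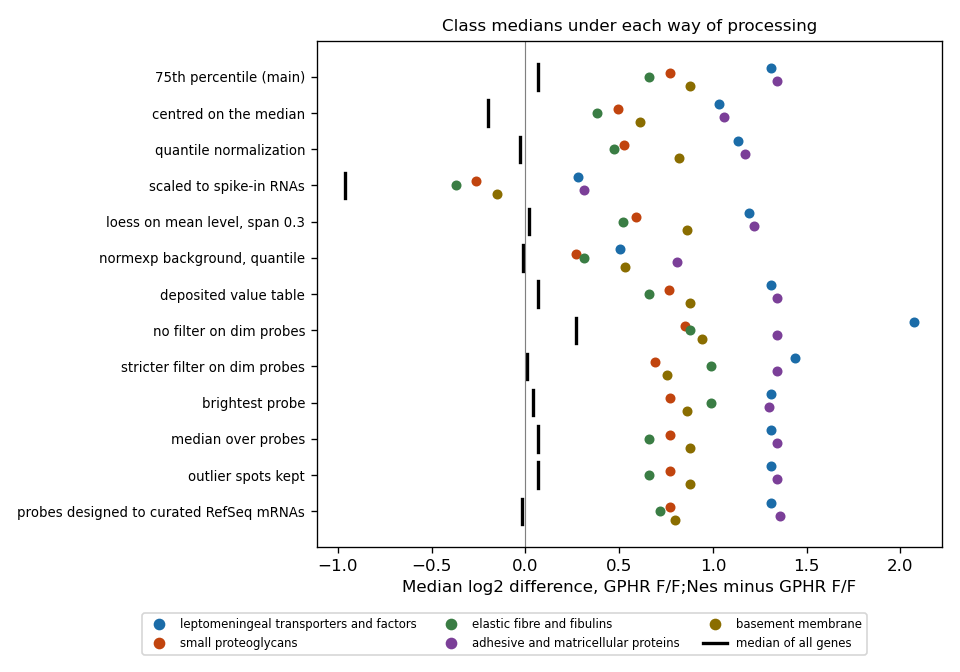
Median log2 difference (Nes array minus control array) of each class (coloured) and of all genes (black bars) under each way of processing. All 5 class medians lay above that of all genes in every setting plotted, and with spike-in scaling the medians of 3 classes lay below 0.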

How the data were processed

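Total RNA of 1 brain sample per genotype was labelled with Cy3 and hybridised to 1-colour Agilent arrays, per the labels' protocols. The scans were quantified in Agilent Feature Extraction 11.5.1.1, per the submitters' processing notes. The deposited scanner output gives an intensity per spot, and per the file headers a fitted spatial surface, not the local background, was subtracted, a multiplicative trend was removed and spots near background could receive a surrogate value. The other deposited values used are flags of 0 or 1 per spot. The deposited series table holds log2 values, which for 99.9% of probes differ from the scanner's log2 signal by a single constant for each array, to within 0.001 (column medians -3.19 and -2.92, constants -8.01 and -7.43). How the authors chose these constants is unstated.

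From these files, 96 non-control spots flagged as outliers were removed, spots of a probe were averaged as log2 values (56603 probes), and each array's 75th percentile was subtracted. A gene, named as on the array, is the mean of its probes well above background on both arrays. A gene seen on 1 array has a bound, set against the dimmest probe called well above background on the other (6.28 units in the control). The members and gene lists were chosen with earlier results of these data known. The rule named, per class, the 4 largest and the smallest difference, members against the class median and bounds, and the leading genes of each related list, of which 1 is not reported here. No model could be fitted with 1 array per group. The steps were tested on simulated data for 23948 genes: of genes changed 2.5-fold 50 of 50 passed the 2-fold line, and of those changed 1.5-fold 0 of 50. The simulated noise was that between repeated spots of brighter probes. It leaves out the noise of dim probes, the dependence on level and differences between animals, so it checks the steps and not the calls. Alternatives were other scalings, background correction, the deposited table, other filters and probe rules, and thresholds of 1.5-fold and 3-fold. Python 3.11.15, numpy 2.4.6, pandas 2.3.3, R 4.3.3 and limma 3.58.1 (loess span 0.3, normexp offset 50) were used.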

Additional observations from a re-analysis of the deposited data

How the results depend on the processing

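No paired analysis was possible because each group has 1 array and the result comes from no test. Each of the 17 genes called 2-fold higher stayed above 0 in every alternative that measured it. Scaling to spike-in RNAs changed most. It left 5 genes 2-fold higher, against 0.58% of all genes, and 5 genes 2-fold lower, against 11007 of all 23948. The median of the 35 genes was then -0.09, against -0.96 for all genes. The class medians were -0.26 (proteoglycans), -0.37 (elastic fibre), -0.15 (basement membrane), 0.28 (leptomeningeal) and 0.31 (matricellular). Centring each array on its median gave 0.67 for the 35 genes and 1.03 (leptomeningeal), 0.49 (proteoglycans), 0.38 (elastic fibre), 1.06 (matricellular) and 0.61 (basement membrane). Quantile normalization gave 0.53 (proteoglycans), 0.47 (elastic fibre) and 1.17 (matricellular). Normexp correction with quantile normalization, 2 changes together, left 6 genes 2-fold higher, against 1.37% of all genes. Its medians were 0.53 for the 35 genes, 0.50 (leptomeningeal), 0.27 (proteoglycans), 0.31 (elastic fibre), 0.81 (matricellular) and 0.53 (basement membrane). Without a filter on dim probes 42 genes had values and 26 were 2-fold higher, against 14.9% of all genes. The medians were 1.15 for all 42, against 0.27 for all genes, 2.07 (leptomeningeal) and 0.88 (elastic fibre). The values added in this setting rest on probes that were not well above background on both arrays. The elastic fibre median was 0.99 with a stricter filter and with the brightest probe. At 1.5-fold 27 genes were higher, and at 3-fold 8 were higher and 0 lower. The shares of all genes past these 2 thresholds were not taken, so these counts cannot be set against all genes. The deposited table, kept outlier spots, the median over probes and, chosen after seeing the data, probes designed to curated RefSeq mRNAs each gave the same 17 genes. Among all genes, the share of 2-fold calls that were higher was 85.3% in the main setting, 57.1% with median centring, 68.6% with quantile normalization, 74.8% with loess and 1.25% with spike-in scaling. Dim genes limit precision: Lum, near background, has a technical error of 0.34.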

Other observations

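Genes read by several probes give a view within each array. Of the 12 genes of the 5 classes with at least 2 probes measured on both arrays, the probes differed by 0.04 to 1.06 log2 units. The range was 0.04 for Fbln5, whose probes overlap, and for Fbn1, 0.07 for Lamc1 and 0.18 for Postn, and it was 0.66 for Eln and 1.06 for Lama2. The brightest probe gave the lowest value for Lama2, Thbs1, Sparc, Lamb1, Tnc and Fbln5, and the highest for Eln, Postn, Fbn1 and Lamc1.

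In 3 genes a probe above background on the Nes array alone lay beside a brighter probe measured on both arrays. The control values of these dim probes lay under 2.42%, the dimmest control signal that counted, so the size of their contrasts was not measured. For Lama1 the dim probe stood at 1.57% and 6.75% of the 75th percentile and the bright one at 99.9% and 125%. For Bgn the dim probe stood at 0.558% and 5.69% and the bright one at 20.5% and 24.5%. For Lama4 the dim probe stood at 2.2% and 3.4% and the brighter one at 3.42% and 16.1%.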
